A study of Ovis aries with 2 samples.

Results

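Somite and dermomyotome cells were followed in whole embryos of Ujumqin and Hulunbuir Short-tail sheep at embryonic day 16 (E16). A cell was a member when it held at least 1 unique molecular identifier (UMI, a counted RNA molecule) of MEOX1 and at least 1 UMI of PAX3, TCF15, FOXC2 or PAX1. It also had to hold 0 UMIs of the endothelial genes CDH5 and PECAM1 and 0 of the presomitic genes TBX6 and MSGN1. Of 24137 kept cells in all, 262 were members. They were 56 of 14554 Ujumqin cells and 206 of 9583 Hulunbuir cells.

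The breeds differ in the form of the tail, and the study compared their cell types and gene levels. Embryos were freed of extraembryonic tissue and dissociated, and the cells of each breed were pooled and sequenced as 1 droplet library, so breed and library cannot be told apart and no difference between them has a replicate check. Ewes of both breeds had been brought into oestrus with progesterone sponges and PMSG, and no sorting step was stated. The Ujumqin library held 212933364 UMIs in 17059 barcodes and the Hulunbuir library 131385353 UMIs in 10709 barcodes.

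Somites are blocks of paraxial mesoderm that form in pairs beside the neural tube. They are cut off one after another from the presomitic mesoderm, where Notch, Wnt and FGF signals set the rhythm and the place of each boundary. The older somite splits into a dorsal epithelium, the dermomyotome, from which muscle and dermis come, and a ventral sclerotome, from which vertebrae and ribs come. MEOX1 is a homeobox gene of all somites, TCF15 keeps the somite epithelial, PAX3 marks the presomitic border and the dermomyotome, FOXC2 is used in paraxial mesoderm, and PAX1 marks the sclerotome.

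The level of a gene is given in CPM, its UMIs summed over a group of cells and scaled to 1000000 UMIs of that group. Ratios of levels are on the log2 scale. The 95% intervals in brackets are exact, Poisson for a level or ratio and binomial for a share, and cover counting error only, and no p-value was computed because a group of cells from 1 library is 1 sample. A feature was counted as different when its levels were at least 2-fold apart, among features with a mean level of at least 20 CPM in the groups compared.

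Members were 0.385% of the kept Ujumqin cells (0.291 to 0.499%) and 2.15% of the kept Hulunbuir cells (1.87 to 2.46%). These shares rest on the rule and on depth. The median member held 16865.5 UMIs in the Ujumqin library (range 3329 to 146306) and 12133.5 in the Hulunbuir library (range 1043 to 86170). When every kept cell was first thinned to 5000 UMIs, the rule found 14 and 80 members, which were 0.174% and 1.06% of the cells deep enough.

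The genes of the rule are a description of how members were chosen. MEOX1 stood at 84.0 CPM in Ujumqin members and 183 in Hulunbuir members. A single UMI of MEOX1 admitted 28 Ujumqin and 78 Hulunbuir members, and the highest member held 16 and 13. The second gene was mostly PAX3, the only one found in 42 Ujumqin and 139 Hulunbuir members. TCF15 alone admitted 5 and 10 members, FOXC2 alone 4 and 15, and PAX1 alone 1 and 3. Members were thus chiefly MEOX1 and PAX3 cells, and only 1 Ujumqin and 4 Hulunbuir members held PAX1.

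Cells just outside the rule resembled the members to different degrees. The 92 Ujumqin and 131 Hulunbuir cells with MEOX1 but none of the second genes had FST at 270 and 245 CPM and COL2A1 at 81.6 and 76.3. The 119 and 643 cells with a second gene but no MEOX1 had FST at 172 and 76.9 and the neural gene SOX2 at 35.7 and 125. A further 7 Hulunbuir cells and 0 Ujumqin cells met both conditions but held an excluded gene.

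Summed levels of marker lists showed which other tissues were represented in the members. The 8 neural crest markers summed to 11.6 and 8.39 CPM in Ujumqin and Hulunbuir members, and the 6 notochord markers to 0 and 0.672. The 11 lateral plate and limb markers summed to 9.13 and 21.8, against 51.3 and 196 in the other kept cells, and the 9 endothelial markers to 30.4 and 22.8, against 125 and 288. The endothelial list includes CDH5 and PECAM1, which the rule held at 0 UMIs in members, so part of that difference was fixed in advance. The 12 endoderm and yolk sac markers stood at 498 and 417, against 5624 and 3524 in the other cells. The 9 erythroid markers summed to 124 in Ujumqin members and 6.38 in Hulunbuir members, and 9 Ujumqin but 0 Hulunbuir members held a UMI of ALAS2, KLF1 or GATA1. The 7 intermediate mesoderm markers summed to 7.91 and 6.04, against 7.27 and 14.8 in other cells, and the 8 cardiac muscle markers to 29.8 and 48.7, against 47.9 and 62.1, with 77.6% of the Ujumqin cardiac UMIs in 1 cell. The 11 neural tube markers summed to 654 and 858, against 81.2 and 375, nearly all of it from NES, and SOX1, SOX3 and OLIG2 were at 0. The part of RNA or cells of these tissues in the results was not tested. The libraries shared 61 barcodes, of which 0 Ujumqin and 1 Hulunbuir belonged to members.

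The label was checked with genes that the rule did not use. COL2A1 and FST, the remaining markers given for these cells, were both higher in members than in the other kept cells of each library. FST encodes follistatin, a secreted binder of activins and BMPs. Its level was 548 CPM (513 to 585) in Ujumqin members against 25.8 in other cells, and 419 (396 to 443) in Hulunbuir members against 30.6. COL2A1, a fibrillar collagen used in sclerotome, notochord and later cartilage, stood at 177 against 7.10 in the Ujumqin library and at 86.3 against 37.4 in the Hulunbuir library. After thinning to 2000 UMIs, 50% of Ujumqin and 48.5% of Hulunbuir members held an FST UMI. Without thinning the shares were 85.7% and 84.5%. In mesenchyme cells, defined by PRRX1 and TWIST1 without MEOX1, the thinned shares were 2.36% and 2.71% at median depths of 36992.5 and 17597.5 UMIs. COL2A1 separated these groups less in the Hulunbuir library. Thinned to 2000 UMIs, 12.3% of Hulunbuir members (8.09 to 17.6%) and 8.24% of mesenchyme cells (6.48 to 10.3%) held it, with overlapping intervals. At 5000 UMIs the shares were 26.5% (20.5 to 33.3%) and 14.6% (12.3 to 17.2%). The Ujumqin shares at 2000 UMIs were 26.8% and 0%.

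Other regulators of the paraxial lineage set the members apart as well. EBF2, a transcription factor of paraxial mesoderm and its derivatives, stood at 26.8 CPM in Ujumqin members against 0.697 in other cells, and at 33.9 in Hulunbuir members against 1.95. DMRT2, needed for an intact dermomyotome, was scarce but concentrated in members, at 14 against 0.111 and at 7.39 against 0.127. MEOX2, the partner gene of MEOX1, stood at 9.13 against 0.361 and at 32.2 against 2.52. The orphan nuclear receptor gene NR2F1 stood at 119 against 5.48 in the Ujumqin library and at 57.4 against 9.66 in the Hulunbuir library. The Wnt receptor gene FZD2 stood at 131 against 6.86 and at 171 against 32.9, and the adhesion gene CADM1 at 184 against 11.9 and at 239 against 42.2.

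**Figure D1:**
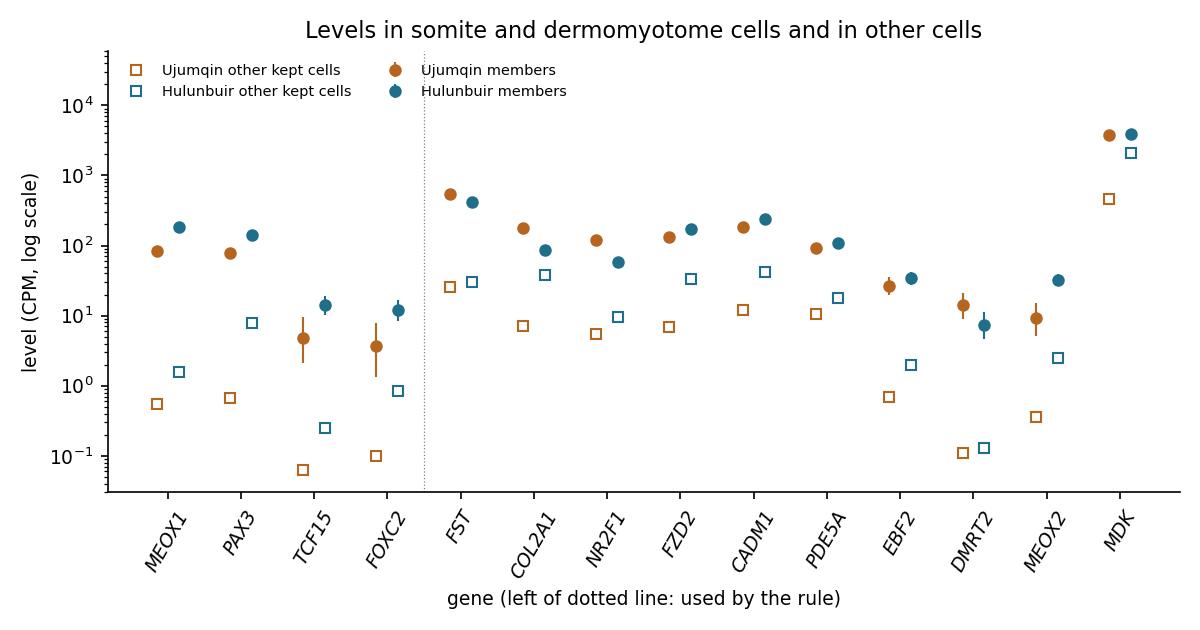
Level of each gene (CPM, log scale) in members (circles, with exact 95% Poisson bars) and in the other kept cells (open squares) of the Ujumqin and Hulunbuir libraries; genes left of the dotted line were used by the rule. FST stood at 548 and 419 CPM in members against 25.8 and 30.6 in other cells, and DMRT2 at 14 and 7.39 against 0.111 and 0.127.

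Over all features, 435 of 2732 were at least 2-fold higher in Ujumqin members than in other cells (15.9%) and 112 were lower (4.1%). Of 3291 features in the Hulunbuir library, 69 were higher (2.1%) and 98 were lower (2.98%). The median log2 ratio was 0.42 in the Ujumqin library and 0.01 in the Hulunbuir library, so a Ujumqin ratio is to be read against that shift. Since members were chosen on these cells, the counts are a description. After COL2A1, NR2F1, FST, FZD2 and CADM1, the named genes with the largest Ujumqin ratios were ID3, the histone variant gene H2AFY2, CD24, the retinoic acid binding protein gene CRABP2 and the activin receptor gene ACVR2B, at log2 ratios of 3.76, 3.59, 3.48, 3.45 and 3.30. Besides the rule genes MEOX1 and PAX3, the leading Hulunbuir genes were CER1, RIPPLY2, CITED1, DEPP1, FST, STOX1, DLL1 and PDE5A, with log2 ratios from 6.78 for CER1 to 2.62 for PDE5A. FST was in the leading 10 of both libraries.

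Genes with lower levels in members included those of connective tissue, yolk sac, epithelium and endothelium. The proteoglycan gene DCN stood at 6.09 CPM in Ujumqin members against 392 in other cells, and at 35.9 in Hulunbuir members against 314. LUM, a related proteoglycan gene, stood at 29.2 against 627 and at 40.3 against 415. The apolipoprotein gene APOA1, a yolk sac and liver product, stood at 22.5 against 785 and at 9.74 against 199. The keratin gene KRT18 was at 357 in Hulunbuir members against 3009 in other cells, a log2 ratio of -3.08 (-3.16 to -2.99). In Ujumqin members KRT18 was at 240 against 646, but 321 of its 394 UMIs came from 1 cell. The other leading genes on this side were LGALS3, APOA2, TTR, SERPINA1, TF, AHSG and AFP in the Ujumqin library, with log2 ratios from -5.54 for LGALS3 to -3.98 for AFP. In Hulunbuir sheep they were PLVAP, KRT8, BAMBI, KRT19, COL1A1 and FKBP11, from -3.66 for PLVAP to -2.39 for FKBP11.

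Several regulators of differentiated somite derivatives were at or near 0, while broader genes of muscle and sclerotome were counted. The dermomyotome gene PAX7, the limb muscle precursor gene LBX1 and the myogenic genes MYOD1 and MYOG had 0 UMIs in members of both libraries. MYF5, the earliest myogenic regulator, had 0 UMIs in Ujumqin and 2 in Hulunbuir members, and MYF6 had 8 and 13. The sclerotome gene PAX9 had 0 UMIs in both libraries, NKX3-2 had 0 and 1, and the tendon precursor gene SCX had 0 and 1. For a gene with 0 UMIs in Ujumqin members, the exact interval of its level reached 2.25 CPM. The 13 myogenic and muscle genes summed to 49.9 and 161 CPM in Ujumqin and Hulunbuir members, against 39.6 and 134 in other cells, including the troponin gene TNNT1 at 13.4 and 62.4. The 15 sclerotome genes summed to 79.7 and 130, against 49.3 and 133, with TWIST1 at 26.8 and 54.4 and SOX9 at 27.4 and 30.2. The 17 dermomyotome genes, a list that includes DMRT2 and EBF2, summed to 66.9 and 70.8, against 13.97 and 38.3. The Hulunbuir sums were thus less than 2-fold apart. Of these genes 7 had 0 UMIs in Ujumqin members and 8 in Hulunbuir members. Besides PAX7 and LBX1, the genes EN1, SIM1, ALX4, MET and EYA4 had 0 UMIs in both. Apart from PAX3, which the rule used, the dermomyotome part of the label rests on DMRT2 and EBF2, without PAX7.

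The members were compared with the populations nearest to them in the trunk. Against 852 Hulunbuir mesenchyme cells, EBF2 stood at 33.9 against 0.427 CPM and NR2F1 at 57.4 against 3.29, while PRRX1, a gene of limb and lateral mesenchyme that defined those cells, stood at 4.03 against 80.1. TWIST1, a mesenchymal regulator that also defined them, stood at 54.4 against 108. In the Ujumqin library the 128 mesenchyme cells had FST at 28.1 against 548 in members and TWIST1 at 34.0 against 26.8. Against 127 Hulunbuir neural cells, defined by SOX2 with PAX6 or SOX1, members had SOX2 at 11.1 against 593, FST at 419 against 20.4 and COL2A1 at 86.3 against 9.26. The intermediate filament gene NES did not separate members from neural cells in the Hulunbuir library, at 802 against 828 and a log2 ratio of -0.05 (-0.14 to 0.05). NES was however higher in members than in all other kept cells, at 624 against 75.3 in the Ujumqin library and 802 against 321 in the Hulunbuir library.

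Members varied most visibly in CER1 and RIPPLY2. CER1 encodes a secreted antagonist of BMP and Nodal signals that is used in newly forming somites, and RIPPLY2 encodes a repressor that ends the presomitic programme at the boundary. The rule used neither gene, and the split by them was chosen after the data were seen. Members with a UMI of either gene are called cells with the pair. In the Hulunbuir library 113 of 206 members were such cells, of which 45 held both, 59 only CER1 and 9 only RIPPLY2. In the Ujumqin library 10 of 56 members were such cells, of which 4 held both, 4 only CER1 and 2 only RIPPLY2. At least 10 UMIs of the pair were counted in 44 Hulunbuir and 2 Ujumqin members, so the signal was not made of single molecules in the Hulunbuir library.

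The share of members with CER1 or RIPPLY2 was compared at equal depth. After thinning to 2000 UMIs it was 35.3% of 204 Hulunbuir members (28.7 to 42.3%), with 2 left out, and 7.14% of 56 Ujumqin members (1.98 to 17.3%). Unthinned shares were 54.9% and 17.9%. In mesenchyme cells the thinned share was 1 of 850 in the Hulunbuir library and 0 of 127 in the Ujumqin library, and the unthinned shares were 3.64% and 3.91%. The intervals of the libraries did not overlap, which concerns counting error in 1 library of each breed. When at least 2 UMIs of MEOX1 were required, the thinned shares were 42.2% of 128 Hulunbuir members (33.5 to 51.2%) and 0 of 28 Ujumqin members, where the exact interval reached 12.3%. Before thinning some of these Ujumqin members did hold the pair, among them 1 with 6 UMIs of CER1 and 3 of RIPPLY2.

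The depths of Hulunbuir cells with and without the pair were close, with medians of 12465 and 11262 UMIs. The Ujumqin medians were 16061 and 17156. However, 1 Ujumqin cell with the pair held 42.2% of the UMIs of its subset, so that cell weighs heavily in the Ujumqin levels with the pair. Without it DLL3 stood at 187 CPM, FST at 141 and NR2F1 at 273. A different Ujumqin cell, of 80271 UMIs, held the 47 NR2F1 and 36 COL2A1 UMIs given below for 1 cell. The deepest Hulunbuir cell with the pair held 3.73%.

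**Figure D2:**
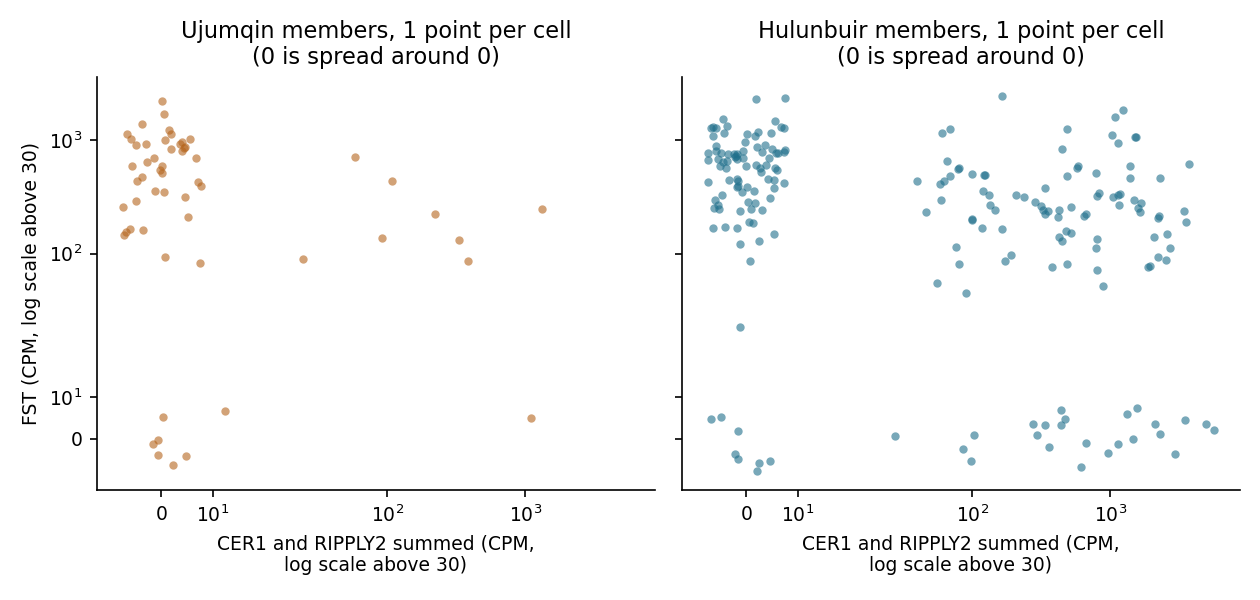
FST level of each member against its summed CER1 and RIPPLY2 level (both CPM, log scale above 30; cells at 0 are spread around 0 for visibility). The Hulunbuir panel holds 113 cells right of 0 and 93 at 0, and the Ujumqin panel 10 and 46.

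In Hulunbuir members, the cells with CER1 or RIPPLY2 were also high in Notch ligands. DLL3, a Notch ligand of presomitic mesoderm, stood at 525 CPM in cells with the pair and at 129 in cells without it, a log2 ratio of 2.02 (1.79 to 2.27). DLL1, the ligand that drives somite boundaries, stood at 153 and 25.4, a log2 ratio of 2.59 (2.08 to 3.15). The glycosyltransferase gene LFNG, which modulates Notch, stood at 11.3 and 4.35 on 18 and 6 UMIs, a log2 ratio whose interval included 0 (-0.02 to 2.99). Of the Notch and clock list only DLL3 and DLL1 were abundant enough for the count, and both were over 2-fold higher. Over all 3269 features, 69 were at least 2-fold higher with the pair (2.11%) and 37 were lower (1.13%).

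Several other genes followed the same split in the Hulunbuir library. DEPP1, a target of FOXO factors, stood at 398 with the pair and 33.3 CPM without it, and the transcriptional cofactor gene CITED1 at 401 and 55.1. RSPO3, which amplifies Wnt signalling, stood at 293 and 50.02, and the FGF receptor gene FGFR1 at 141 and 50.02. FGF18, a ligand gene, was counted 43 times with the pair and 1 time without it. The cardiac type actin gene ACTC1 stood at 83.2 and 15.2, but 61 of its 133 UMIs with the pair lay in 1 cell.

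The cells without the pair held more FST, NR2F1, EBF2 and DMRT2, and matrix genes were split. FST stood at 573 CPM without the pair and 285 with it, a log2 ratio with over without of -1.01 (-1.18 to -0.84). NR2F1 stood at 95.7 and 24.4, COL2A1 at 128 and 50.7, and EBF2 at 47.1 and 22.5. DMRT2 was counted 20 times without the pair and 2 times with it. PCOLCE, an enhancer of procollagen processing, stood at 222 and 74.4, and the laminin gene LAMB1 at 66.7 and 21.3. The collagen gene COL1A1 had the other order, at 37.7 without the pair and 93.2 with it, as had DCN, at 6.52 and 61.3. Of their 149 and 98 UMIs with the pair, 32 and 30 lay in 1 cell for each gene. Of 13 tested matrix genes 3 were over 2-fold higher with the pair and 3 were lower (2.11% and 1.13% of all features). MEOX1 was higher with the pair, at 226 against 133, whereas PAX3 did not differ beyond counting error, at 145 against 139 and a log2 ratio of 0.06 (-0.22 to 0.34).

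The Ujumqin cells showed part of this split. DLL3 stood at 126 with the pair and 26.1 without it, a log2 ratio of 2.26 (1.58 to 2.96), DEPP1 at 70.1 and 0.769, CITED1 at 140 and 9.99, and RSPO3 at 81.8 and 16.9. FST stood at 120 and 661, a log2 ratio of -2.47 (-2.95 to -2.01). The ratio of NR2F1 had the other sign than in the Hulunbuir library, 175 with the pair against 105 without it, and 47 of the 60 UMIs with the pair came from 1 cell. COL2A1 stood at 207 and 169, a log2 ratio whose interval included 0 (-0.11 to 0.69), with 36 of 71 UMIs from 1 cell. In this library 95 of 2888 features were at least 2-fold higher with the pair (3.29%) and 146 were lower (5.06%).

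Hulunbuir members were then set beside the presomitic cells that the rule had excluded. No kept cell of either library held both TBX6 and MSGN1, so 88 Hulunbuir cells with either gene were used, a definition added after the data were seen. The Ujumqin library held 2 such cells and was left out. FGF8 and CDX2, genes of the tail bud and posterior presomitic mesoderm, stood at 185 and 86.7 CPM in presomitic cells. In members they stood at 10.6 and 6.25 with the pair and at 15.9 and 9.42 without it. The low levels of both genes in either subset set the members apart from the presomitic cells.

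DLL3 stood at like levels in presomitic cells and in members with the pair, at 570 and 525, and lower in members without it, at 129. DLL1 stood at 72.6 in presomitic cells, 153 with the pair and 25.4 without it. CER1 was at 10.6 in presomitic cells and 572 in members with the pair, where its UMIs defined the subset. DEPP1 and FGF18, which did not define it, stood at 8.46 and 1.41 in presomitic cells and at 398 and 26.9 with the pair. The chemokine receptor gene CXCR4 formed a descending series, at 163, 81.3 and 19.6 in presomitic cells, members with the pair and members without it.

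Some genes of the somite lineage formed the opposite series. FST stood at 37.3 in presomitic cells, 285 in members with the pair and 573 in members without it. NR2F1 stood at 2.82, 24.4 and 95.7 in the same order, EBF2 at 3.52, 22.5 and 47.1, and TWIST1 at 9.87, 45.0 and 65.2. DMRT2 had 0 UMIs in presomitic cells and stood at 1.25 and 14.5 in the member subsets. Other somite genes did not rise from members with the pair to members without it. MEOX1 stood at 226 and 133, MEOX2 at 38.8 and 24.6, TCF15 at 16.9 and 10.9, and PAX3 at 145 and 139. In the levels of FST, NR2F1, EBF2, TWIST1 and DMRT2 the members with the pair lay between presomitic cells and the other members. The series orders groups of cells by level and holds no measurement of time or position.

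**Figure D3:**
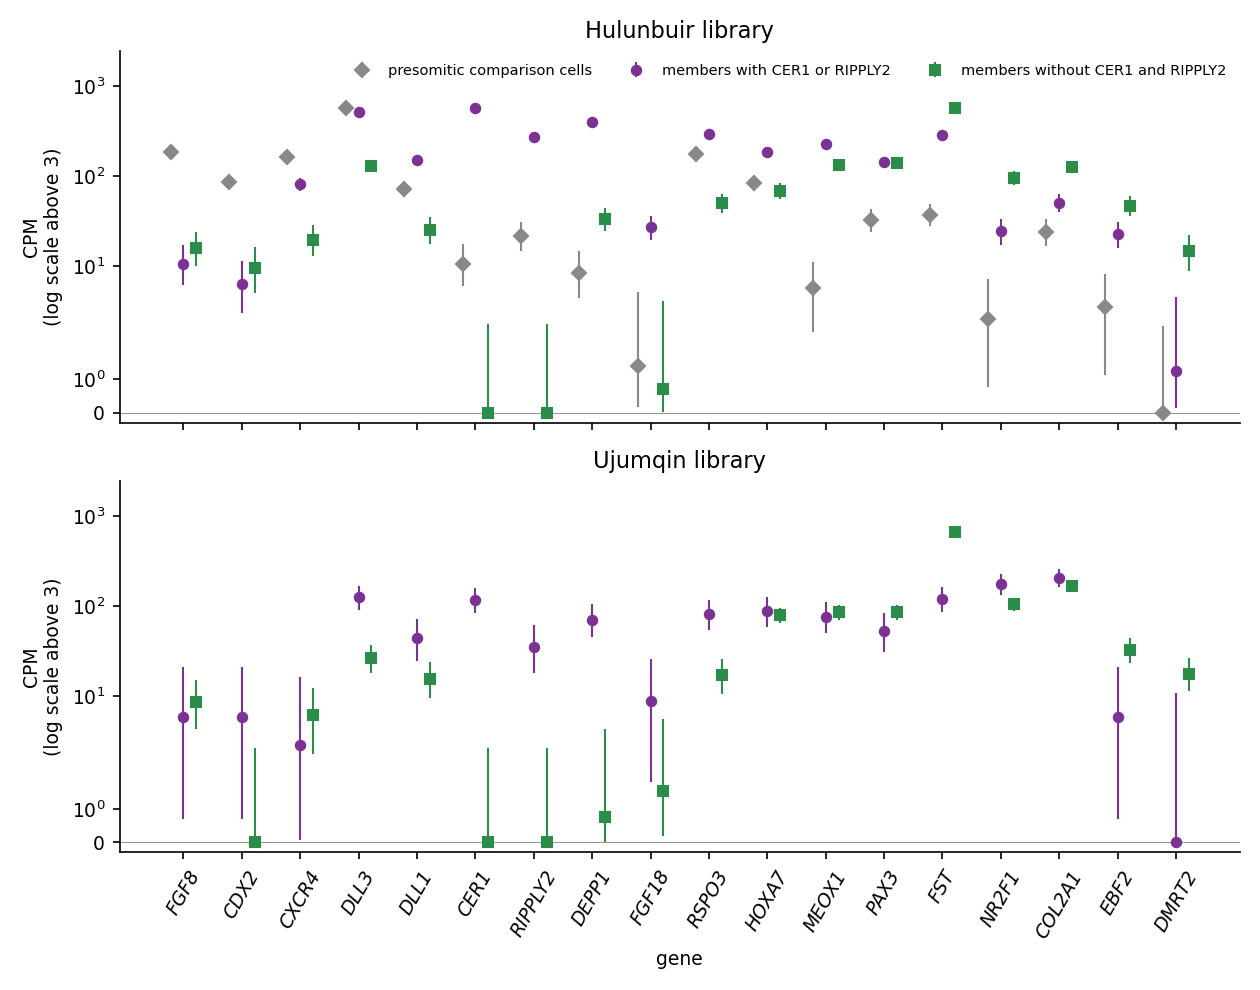
Level of each gene (CPM, log scale above 3) in Hulunbuir presomitic comparison cells (diamonds), members with CER1 or RIPPLY2 (circles) and members without both (squares), with the Ujumqin members below; bars are exact 95% Poisson intervals. In the Hulunbuir library CXCR4 descended from 163 to 81.3 and 19.6, while FST ascended from 37.3 to 285 and 573.

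HOX genes give cells a place along the trunk, with higher paralogous groups used further back. Members of both libraries expressed groups 2 to 9. In the Ujumqin library group 7 summed to 91.3 CPM against 7.20 in other cells and group 9 to 86.4 against 15.2. In the Hulunbuir library group 7 summed to 143 against 48.4 and group 9 to 138 against 96.0. HOXA10, HOXC8 and HOXD11 had no feature under these symbols, so groups 8, 10 and 11 were summed without them. The counted genes of groups 10 to 13 were nearly absent, with 0 UMIs in each group in Ujumqin members and 2, 6, 2 and 6 UMIs in Hulunbuir members. Other Hulunbuir cells held group 11 at 49.96 CPM against 2.01 in members. Members thus held few or 0 UMIs of the counted genes of the groups used at the lumbosacral and tail levels.

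Within Hulunbuir members HOX groups 6 to 9 were higher in the cells with CER1 or RIPPLY2, and the other groups had no common order. Group 6 summed to 65.0 CPM with the pair and 27.5 without it, group 7 to 200.1 and 76.8, group 8 to 23.8 and 2.90, and group 9 to 194 and 71.8. Group 2 stood at 41.9 and 26.1, group 3 had the other order, at 27.5 and 47.8, and groups 4 and 5 stood at 38.1 and 45.7 and at 35.6 and 34.8. Groups 10 and 11 held at most 3 UMIs in either subset. The single genes HOXA7 and HOXB9 stood at 186 and 141 with the pair and at 68.9 and 44.9 without it, log2 ratios of 1.44 (1.10 to 1.78) and 1.65 (1.24 to 2.08). In Ujumqin members group 6 summed to 29.2 with the pair and 23.1 without it, group 7 to 105 and 87.6, group 8 to 17.5 and 9.99, and group 9 to 123 and 76.9. The intervals of the subsets overlapped in each of these 4 groups. HOXA7 stood at 87.6 and 79.2, a log2 ratio of 0.15 (-0.49 to 0.74), and HOXB9 at 38.0 and 65.3, a log2 ratio of -0.78 (-1.75 to 0.07).

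**Figure D4:**
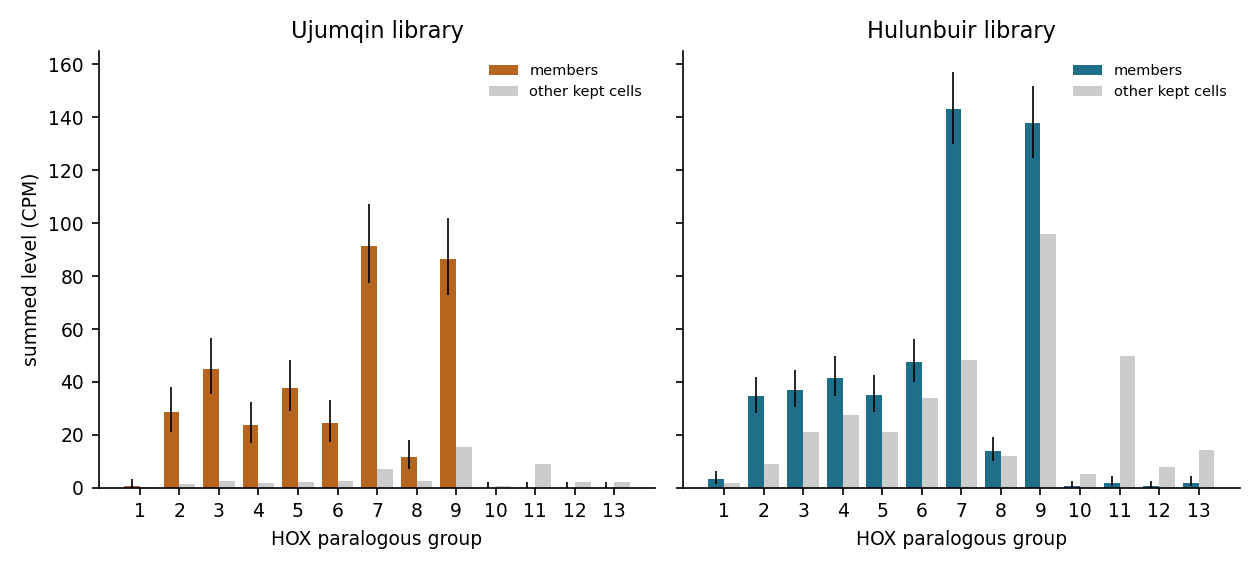
Summed level of the counted HOX genes of each paralogous group (CPM) in members (coloured bars, with exact 95% Poisson intervals) and other kept cells (grey bars) of each library. Members reach 91.3 and 143 in group 7, and groups 10 to 13 hold 0 UMIs in Ujumqin members.

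Hulunbuir members were compared with Ujumqin members to describe how the breeds' libraries differed in these cells. Of 3125 features, 218 were at least 2-fold higher in Hulunbuir members (6.98%) and 41 were lower (1.31%), and the median log2 ratio was 0.26. With the lower limit raised to 4-fold the counts were 25 and 19. The leading named genes on the Hulunbuir side were those of the CER1 and RIPPLY2 cells. On the Ujumqin side they were AHSG, IGFBP7, FOS, ID2, ID1, BLVRB, RHOB, MYC, YBX1 and COL3A1. Of these, AHSG and IGFBP7 had most of their Ujumqin UMIs in 1 cell each, and BLVRB moved with erythroid RNA.

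RIPPLY2 stood at 145 CPM in Hulunbuir and 7.30 in Ujumqin members, a log2 ratio of 4.31 (3.49 to 5.28). CER1 stood at 307 and 24.3, a log2 ratio of 3.66 (3.20 to 4.15). The median member held 1 UMI of CER1 in the Hulunbuir library, with a highest count of 48, and 0 in the Ujumqin library, with a highest count of 14. Most Ujumqin members were therefore at 0 and the ranges of cells overlapped. In the other kept cells CER1 stood at 2.80 and 0.346, so its level was higher outside the members of the Hulunbuir library as well.

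The Notch ligand genes, DEPP1 and CITED1 followed. DLL3 stood at 341 in Hulunbuir and 46.9 in Ujumqin members, a log2 ratio of 2.87 (2.53 to 3.22), and DLL1 at 94.0 and 21.3, a log2 ratio of 2.14 (1.63 to 2.69). DEPP1 stood at 229 and 15.2 and CITED1 at 241 and 37.1. The other kept cells of these libraries had DLL3 at 59.8 and 2.56 and CITED1 at 16.4 and 2.13. Both genes thus differed between the libraries outside the members too, by larger ratios than within them. All 3 tested genes of the somite formation list, RIPPLY2, CER1 and MEOX2, and both tested genes of the Notch and clock list were over 2-fold higher. Of all features 6.98% were higher.

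The remaining genes of the leading 10 were GADD45G, a growth arrest gene, STOX1, RSPO3 and APOC2, a lipoprotein lipase cofactor. GADD45G stood at 110 in Hulunbuir and 12.2 in Ujumqin members, STOX1 at 120 and 20.1, RSPO3 at 181 and 30.4, and APOC2 at 229 and 52.3. The same genes in other kept cells stood at 87.1 and 10.8 for GADD45G, 14.6 and 0.976 for STOX1, 120 and 72.1 for RSPO3, and 173 and 136 for APOC2. GADD45G thus differed between the libraries by a like amount outside the members, and STOX1 by a larger ratio. RSPO3 and APOC2 differed there by smaller ratios than in members.

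The differing share of CER1 and RIPPLY2 cells touches these values, so they were repeated in the members without the pair, 93 in the Hulunbuir and 46 in the Ujumqin library. The log2 ratio Hulunbuir over Ujumqin was then 2.30 for DLL3 (1.77 to 2.88), 2.46 for CITED1 (1.60 to 3.44), 2.03 for GADD45G (1.11 to 3.07) and 1.56 for RSPO3 (0.85 to 2.33). DLL1 was left with 0.72 (-0.11 to 1.59), an interval that included 0. The count of features higher in Hulunbuir members was 134 instead of 218. DLL3 and CITED1 were thus over 2-fold apart between the breeds' libraries also in cells with 0 UMIs of the pair.

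COL2A1 and NR2F1 were lower in Hulunbuir members, by amounts that differed between the subsets. COL2A1 stood at 86.3 in Hulunbuir and 177 in Ujumqin members, a log2 ratio of -1.04 (-1.29 to -0.79), and NR2F1 at 57.4 and 119, a log2 ratio of -1.05 (-1.36 to -0.75). In members without the pair the ratios were -0.41 (-0.70 to -0.11) and -0.13 (-0.48 to 0.23), neither of them 2-fold. With the pair they were -2.03 (-2.51 to -1.55) and -2.84 (-3.47 to -2.24), where 36 of 71 and 47 of 60 Ujumqin UMIs lay in 1 cell. FST stood at 419 and 548, a log2 ratio of -0.39 (-0.51 to -0.26), which was -0.21 (-0.35 to -0.06) without the pair and 1.25 (0.79 to 1.75) with it. HOXA7 had a ratio of 0.71 over all members, -0.20 (-0.62 to 0.22) without the pair and 1.09 (0.54 to 1.68) with it.

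**Figure D5:**
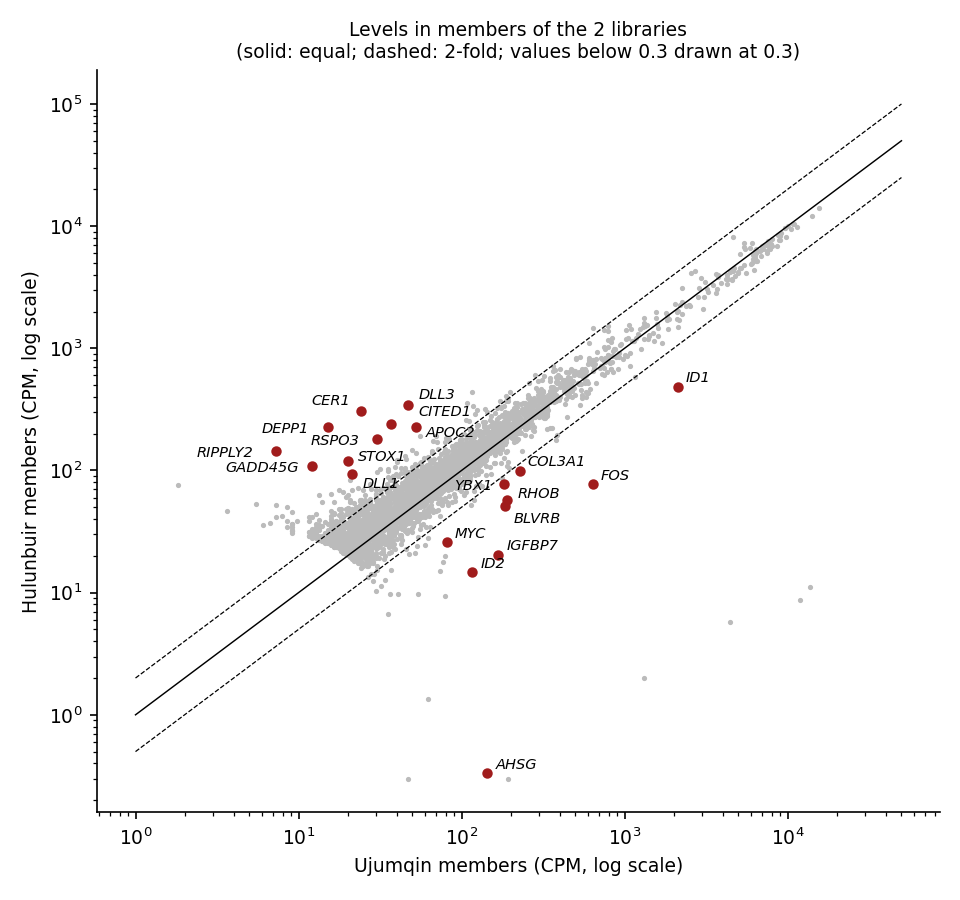
Level of each of the 3125 features in Ujumqin members (horizontal) and Hulunbuir members (vertical), both in CPM on log scales, with the 10 named genes of largest ratio in each direction in red. RIPPLY2 lies at 7.30 and 145, ID1 at 2115 and 487, and the dashed lines mark 2-fold.

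ID genes, inhibitors of basic helix-loop-helix factors and targets of BMP signalling, were higher in Ujumqin members. ID1 stood at 2115 CPM in Ujumqin and 487 in Hulunbuir members, a log2 ratio Hulunbuir over Ujumqin of -2.12, and ID2 at 116 and 14.8, a ratio of -2.98 (-3.48 to -2.50). ID4 stood at 35.3 and 6.72, whereas ID3 was less than 2-fold apart at 851 and 641. Of the list of BMP ligands, antagonists and ID genes, 7 of 19 were abundant enough, of which 0 were over 2-fold higher in Hulunbuir members and 3 were lower. The shares of all features were 6.98% higher and 1.31% lower. The order of ID1 was opposite in the other kept cells, at 296 in the Ujumqin and 839 in the Hulunbuir library. ID1 was also apart in members without the pair, with a log2 ratio of -1.82 (-1.93 to -1.71).

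Immediate-early genes were also higher in Ujumqin members, and in part in other cells. FOS stood at 638 in Ujumqin and 77.9 in Hulunbuir members, a log2 ratio of -3.03, and at 182 and 59.5 in the other kept cells. JUN stood at 384 and 194 in members and at 182 and 201 in other cells. The growth regulator MYC stood at 80.9 and 25.9 in members, against 67.0 and 48.6 in other cells. RHOB, a small GTPase gene, stood at 190 and 57.4 in members and at 63.6 and 108 in other cells. Of 6 tested genes of the immediate-early and stress list, 0 were over 2-fold higher in Hulunbuir members and 2, FOS and MYC, were lower. The shares of all features were 6.98% and 1.31%.

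Some of the genes on the Ujumqin side had most of their UMIs in single cells or moved with erythroid RNA. AHSG, a fetal plasma protein gene, stood at 144 in Ujumqin members and 0.336 in Hulunbuir members, but 138 of its 236 Ujumqin UMIs lay in 1 cell. The difference did not rest on that cell alone. In members with the pair, where no Ujumqin cell held over 5 AHSG UMIs, it stood at 35.0 against 0 in the Hulunbuir library. In the other kept Ujumqin cells AHSG stood at 2545. IGFBP7, a secreted binder of insulin-like growth factors, stood at 169 and 20.5, with 196 of 277 UMIs in 1 cell, and its log2 ratio of -3.04 was -0.18 when the second gene had to be PAX3 or TCF15. BLVRB, a haem breakdown enzyme gene abundant in red cells, had a ratio of -1.86, which was -0.57 without the 9 members that held an erythroid UMI. It stood at 1196 and 70.9 CPM in the other kept cells. Another 4 features without a symbol were picked for at least 1000 CPM in Ujumqin and a level at least 32-fold lower in Hulunbuir. They took 3.13% of the UMIs of Ujumqin members and 0.00275% of those of Hulunbuir members, a contrast that the choice fixed in advance.

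The RNA-binding protein gene YBX1 and the collagen gene COL3A1 completed the leading 10 on the Ujumqin side. YBX1 stood at 183 in Ujumqin and 78.2 in Hulunbuir members, and COL3A1 at 227 and 99.7, a log2 ratio of -1.19 that was -0.82 in members without the pair. Among 12 tested matrix genes, COL2A1 and COL3A1 were over 2-fold lower in Hulunbuir members and 1 was higher. Over all features 1.31% were lower and 6.98% higher, so the share of matrix genes that were higher is near that of all features. The higher gene was the proteoglycan gene DCN, at 35.9 against 6.09, with 30 of 107 Hulunbuir UMIs in 1 cell.

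Signalling lists were otherwise close between the libraries. Over all features 6.98% were over 2-fold higher in Hulunbuir members and 1.31% were lower. Of 4 tested Wnt genes RSPO3 was over 2-fold higher in Hulunbuir members, while FZD2 stood at 171 against 131 and SFRP1, a Wnt antagonist gene, at 55.1 against 54.8. Of 2 tested FGF genes FGFR1 was higher, at 98.7 against 35.3, and the feedback gene DUSP6 stood at 103 against 110. None of 3 tested retinoic acid genes was 2-fold apart, and CRABP2 stood at 335 against 250. None of 7 tested HOX genes was 2-fold apart, with a median log2 ratio of 0.66. The Hippo genes, which the study discusses for tail form, were too scarce for a count, and YAP1 stood at 10.4 against 6.09 on 31 and 10 UMIs.

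Some genes of division were higher in Hulunbuir members. Of 8 tested G2 and M phase genes, 2 were over 2-fold higher and 0 lower, where 6.98% of all features were higher. CDK1, the mitotic kinase, stood at 69.8 in Hulunbuir and 24.95 in Ujumqin members, and cyclin B2 (CCNB2) at 171 and 71.2. TOP2A stood at 669 and 477, a log2 ratio of 0.49 that was 0.17 (0.02 to 0.32) in members without the pair and 1.43 (1.12 to 1.75) in those with it. Of 10 tested S phase genes 1 was higher, a share near that of all features, CLSPN at 84.9 against 37.1. The other kept cells had CDK1 at 53.6 and 35.1 and CCNB2 at 132 and 68.7.

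A list of 24 genes held genes that the study names and NR2F1, which it does not name (it names NR2F2). Of the list, 21 were tested between the breeds' members. In Hulunbuir members 0 were over 2-fold higher and 4 were lower, namely IGFBP7, FOS, NR2F1 and COL2A1. Of all features 6.98% were higher and 1.31% lower. The study chose its genes on the same libraries, so the count is not independent evidence. Against the other kept cells, 15 of 20 tested were over 2-fold higher and 2 lower in Ujumqin members (15.9% and 4.1% of all features). In Hulunbuir members 7 of 22 were higher and 5 lower (2.1% and 2.98% of all features). The list holds PAX3, which the rule used, so its higher level in members was fixed in advance. It also holds FST and COL2A1, markers given for these cells. The growth factor gene MDK stood at 3869 in Hulunbuir and 3724 in Ujumqin members, against 2114 and 463 in other cells. The fatty acid genes ACLY, ELOVL6 and MECR stood at 25.9, 18.1 and 28.9 in Hulunbuir members and at 35.9, 13.4 and 19.5 in Ujumqin members, none of them 2-fold apart. PPP1CC stood at 193 and 244.

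A further 9 Ujumqin and 26 Hulunbuir members held neither PAX3 nor PAX1 and were admitted by TCF15 or FOXC2 alone. FST was lower in them than in PAX3 members, at 292 against 621 CPM in the Ujumqin library and at 212 against 448 in the Hulunbuir library. NR2F1 was higher in them, at 247 against 85.3 and at 91.5 against 52.4. SOX9, a regulator of cartilage precursors, stood at 65.4 against 24.6 in the Hulunbuir library, a log2 ratio of PAX3 members over the others of -1.41 (-2.10 to -0.68), and at 12.1 against 30.2 in the Ujumqin library on 4 and 39 UMIs. These subsets depend on depth. After thinning to 2000 UMIs only 23.2% of Ujumqin and 24.5% of Hulunbuir members still showed PAX3 without PAX1, against 82.1% and 85.4% unthinned.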

How the data were processed

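The RNA of single cells at E16 was measured by droplet capture, with 1 pooled library for each breed. The authors deposited counts of UMIs for each feature and barcode, made with Cell Ranger against the rambouillet_v1.0 sheep assembly and not normalized (version 3.1.0 per the submitters' processing notes, 5.0.0 per the file headers). Barcodes with at least 200 genes and under 10% of UMIs on MT- symbols were kept. Of 26478 features 9808 had no symbol. Doublets were kept in the main values. The members and the 31 gene lists were chosen with earlier results of these data known. Counts were summed over cells and divided by the total of the group (CPM), and with 0 counts a fold was taken against 3. No test between breeds was run. Named genes were those of the lists and the 10 of largest fold with a mean CPM of at least 50, without mitochondrial, ribosomal protein and haemoglobin genes. The steps were tested on simulated data. Sequences and coordinates are not reported here. Values were computed with numpy 2.4.6, pandas 2.3.3 and scipy 1.17.1 in Python 3.11.15, doublets were scored with scanpy 1.11.5 (Scrublet) and plots drawn with matplotlib 3.10.9.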

Additional observations from a re-analysis of the deposited data

How the results depend on the processing

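With 1 library for each breed no direction between breeds has a replicate check, genes under about 20 CPM are limited by depth, and counts past a fold depend on the limit. No paired analysis was possible because each group held 1 library. For the 20 genes leading between the breeds' members, all 278 values over the alternatives had the sign of the main value and 271 were still 2-fold apart. Some of these values could not change. The 4-fold limit and the mean CPM of at least 50 left the ratios as they were. With at least 500 genes per cell, or without the mitochondrial limit, the members were the same 56 and 206 cells. Each of these settings gave 20 of the 278 values.

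The percentage of kept cells that were members was 0.555% in the Ujumqin library with at least 500 genes per cell. It was 0.192% (Ujumqin) and 1.34% (Hulunbuir) with at least 2 UMIs of MEOX1, and 0.174% and 1.06% with the rule applied to cells thinned to 5000 UMIs. The share of members with PAX3 and no PAX1 was 82.1% and 85.4% unthinned. In the Hulunbuir library it was 53.6% with thinning to 5000 UMIs and 35% under the thinned rule.

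Features higher in Hulunbuir than in Ujumqin members numbered 349 with at least 2 UMIs of MEOX1 and 426 under the thinned rule, where 99 were lower. In members without CER1 and RIPPLY2 134 were higher, and in members with either gene 567 were higher and 102 lower, both alternatives chosen after seeing the data. Leaving ribosomal protein, mitochondrial and haemoglobin genes out of the total gave 63 lower, and 831 features higher in Ujumqin members than in other cells, where the median log2 ratio was 0.61 instead of 0.42. A mean CPM of at least 50 gave 77 higher and 20 lower between breeds, 199 and 66 against other Ujumqin cells, and 31 and 42 against other Hulunbuir cells. The 4-fold limit gave 25 and 19, 73 and 53, and 23 and 36 in the same order. The thinned rule gave 106 features higher in Hulunbuir members than in other cells. The percentage of higher among all called features between breeds was 84.2% at 2-fold and 56.8% at 4-fold.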

Other observations

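Genes of contractile proteins were among those that differed within and between the libraries. The myosin light chain gene MYL4 was counted 49 times in Hulunbuir members with the pair and 2 times without it, with 34 of the 49 in 1 cell, against 0 and 3 times in Ujumqin members. ACTC1 stood at 20.4 CPM in Ujumqin members with the pair and 3.84 without it. TNNT1 and TNNC1, troponin genes, stood at 62.4 and 24.8 CPM in Hulunbuir members and at 13.4 and 4.26 in Ujumqin members. Of the 74 TNNC1 UMIs in Hulunbuir members, 36 lay in 1 cell and 20 in another. In the other kept cells TNNT1 stood at 45.4 and 3.33, so these genes are not particular to members.

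The secreted growth factor gene PTN stood at 515 CPM with the pair and 171 without it in Hulunbuir members. It stood at 812 and 53.8 in Ujumqin members, where 225 of 278 UMIs with the pair lay in 1 cell. The Hedgehog antagonist gene HHIP stood at 17.5 in Hulunbuir and 5.48 in Ujumqin members, and the Hedgehog receptor gene PTCH1 at 11.1 and 4.26. The Hippo scaffold gene AMOTL2 stood at 1.68 and 14, on 5 and 23 UMIs. Somite polarity genes were scarce, with UNCX at 8 UMIs in each library and TBX18 at 4 Hulunbuir and 0 Ujumqin UMIs.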
